A study of Mus musculus with 4 samples.

Results

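The 9 genes described here are 3 receptors of the epidermal growth factor (EGF) receptor family (Egfr, Erbb2 and Erbb3) and 6 of their ligands (Areg, Ereg, Hbegf, Tgfa, Epgn and Btc). They were taken by gene symbol from a table of 54446 genes with an Ensembl ID, and all 9 were among the 21916 genes that passed the filter on low counts. RNA was sequenced from tongue-derived epithelial cells of C57BL/6 mice, in 4 libraries. Control 1 and 2 came from wild-type cells, and the other 2 from cells labelled as lacking the deubiquitinase Otub2 systemically (libraries 3 and 4). All cells were grown in the same serum-containing medium. Nothing in the labels tells whether the libraries stem from different mice or cultures, or which part of Otub2 was deleted, so p-values reflect no more than the spread among these 4 libraries, which may be technical.

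EGF receptors are tyrosine kinases at the cell surface that pair up when a ligand binds and pass the signal to the RAS-ERK and PI3K pathways. Erbb2 binds no ligand of its own and serves as a partner, while Erbb3 has a weak kinase and is bound by neuregulins. The ligands are made as membrane-anchored precursors and released by proteases of the ADAM family. In stratified epithelium keratinocytes make both the receptor and several ligands, and this loop is known for its part in migration, proliferation and wound closure.

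The 6 ligands share a stretch with 6 cysteines, the EGF-like fold that binds the receptor. A search of the GENCODE coding sequences (GRCm38) for the spacing of these cysteines found the stretch in all 6, each time with 108 bases that span 2 exons. The 5 sequences below show what the ligands have in common, with the 6 cysteine codons in capitals. The first 4 genes lie in 1 cluster on chromosome 5.
Ereg: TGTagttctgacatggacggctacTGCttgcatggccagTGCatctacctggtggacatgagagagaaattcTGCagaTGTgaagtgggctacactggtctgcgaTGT
Areg: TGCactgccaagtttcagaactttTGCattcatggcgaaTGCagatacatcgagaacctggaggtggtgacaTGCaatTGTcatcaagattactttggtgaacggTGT
Epgn: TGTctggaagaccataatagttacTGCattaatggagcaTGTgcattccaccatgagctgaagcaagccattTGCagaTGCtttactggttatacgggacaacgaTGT
Btc: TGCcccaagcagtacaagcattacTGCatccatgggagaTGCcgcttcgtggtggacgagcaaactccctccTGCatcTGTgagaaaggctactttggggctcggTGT
Tgfa: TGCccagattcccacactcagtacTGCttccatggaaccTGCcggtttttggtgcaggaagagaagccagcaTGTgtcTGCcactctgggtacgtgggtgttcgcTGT
The stretch lies at chr5:91088496-91089111 (plus strand) in Ereg, chr5:91143614-91144364 (plus) in Areg, chr5:91031152-91032237 (plus) in Epgn, chr5:91362421-91366197 (minus) in Btc and chr6:86263200-86269960 (plus) in Tgfa, introns included. Base by base, the 10 pairs of these sequences were identical at 45.4% (Ereg and Tgfa) to 62.0% (Btc and Tgfa) of positions. Ereg and Areg were identical at 53.7%. The search required the 6 cysteines, so identity within their codons was largely set by it. Over the 90 bases outside these codons, identity ran from 37.8% (Ereg and Tgfa) to 56.7% (Btc and Tgfa). For Ereg and Areg it was 45.6%. In the Hbegf coding sequence the spacing of the cysteines was the same, which the search largely required.

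The controls held 12185345 and 11548186 gene counts, and libraries 3 and 4 held 22719550 and 18911259. The count columns of libraries 3 and 4 are headed OE where the sample titles say KO, and titles and genotype labels were followed. Otub2 was at 27.5 and 26.9 CPM in the controls versus 19.0 and 24.0 CPM in libraries 3 and 4. Its log2 fold change was -0.34 (SE 0.302, edgeR adjusted p = 0.485), so Otub2 did not pass the test and these values do not check a deletion. Library 3 stood apart, since 14 markers of gland secretory cells made up 30.1% of its gene counts, compared with 0.00155%, 0.00126% and 0.00344% in Control 1, Control 2 and library 4. Of these markers 4 were above both controls in each of the 2 libraries, and 1 was below, beside 26.9% and 33.1% of all genes tested. Between 2 and 3 of the 14 had no counts in each library, namely Dcpp genes everywhere and Pip in the controls. The summed level of 8 cardiomyocyte markers was 18612 CPM in library 3 and 31.6 to 55.2 CPM in the other 3 libraries. The 15 keratinocyte markers, all with counts in every library, summed to 65457 and 60475 CPM in the controls versus 33668 and 48143 CPM in libraries 3 and 4. They made up 7.68% and 7.15% of gene counts in the controls, 5.26% in library 4 and 2.12% in library 3, so that gland markers outweighed them in library 3. Krt14 weighed most in the keratinocyte sum, at 25325 and 21568 CPM in the controls versus 11059 and 15974 CPM. In library 4 Krt5 (8223 CPM against 5025 and 4840), Trp63, Itga6, Col17a1, Dsg3, Dsc3 and Cdh1 lay above both controls, and the other 8 lay below. Markers of fibroblasts, endothelium, leukocytes and muscle also all had counts in every library.

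Ereg encodes epiregulin, a ligand of Egfr and Erbb4. It was the member farthest below the controls, and both libraries labelled Otub2 knockout lay below both controls. Ereg (ENSMUSG00000029377, chromosome 5, 91074622 to 91093646, plus strand, in GRCm38) was covered by 1135 and 1517 counts in the controls versus 464 and 802 in libraries 3 and 4. Scaled with TMM, a method that corrects library size for a few dominant transcripts, its level was 79.4 and 111 CPM in the controls versus 32.4 and 38.8 CPM in the others. The groups did not overlap, and the levels of libraries 3 and 4 were closer to each other than those of the controls. The log2 fold change was -1.42 (SE 0.294, 95% interval -2.17 to -0.67, n = 2 libraries per group), or 2.67-fold lower. With the quasi-likelihood test of edgeR, adjusted over all genes, this did not pass (adjusted p = 0.166, unadjusted p = 0.00431). In bulk RNA, fewer cells of a type and less RNA per cell cannot be told apart.

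No member passed that test, and none of all genes tested did (0.0%). An unadjusted p under 0.05 was reached by 1 member, Ereg, as by 9.42% of all genes in the higher and 15.2% in the lower direction. Of 11788 genes with a mean of at least 5 CPM, 1.51% had a log2 fold change as low as that of Ereg or lower. Over all genes tested, those with low counts included, this share was 14.4%. DESeq2 called 1 member, Ereg (log2 fold change -1.37, adjusted p = 0.0345), and called 1.62% of its genes lower and 4.89% higher. Over the 13 alternatives to this fit, which include leaving out each library, the adjusted p of Ereg ran from 9.54e-07 to 0.832 and its log2 fold change from -1.88 to -1.13.

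**Figure D1:**
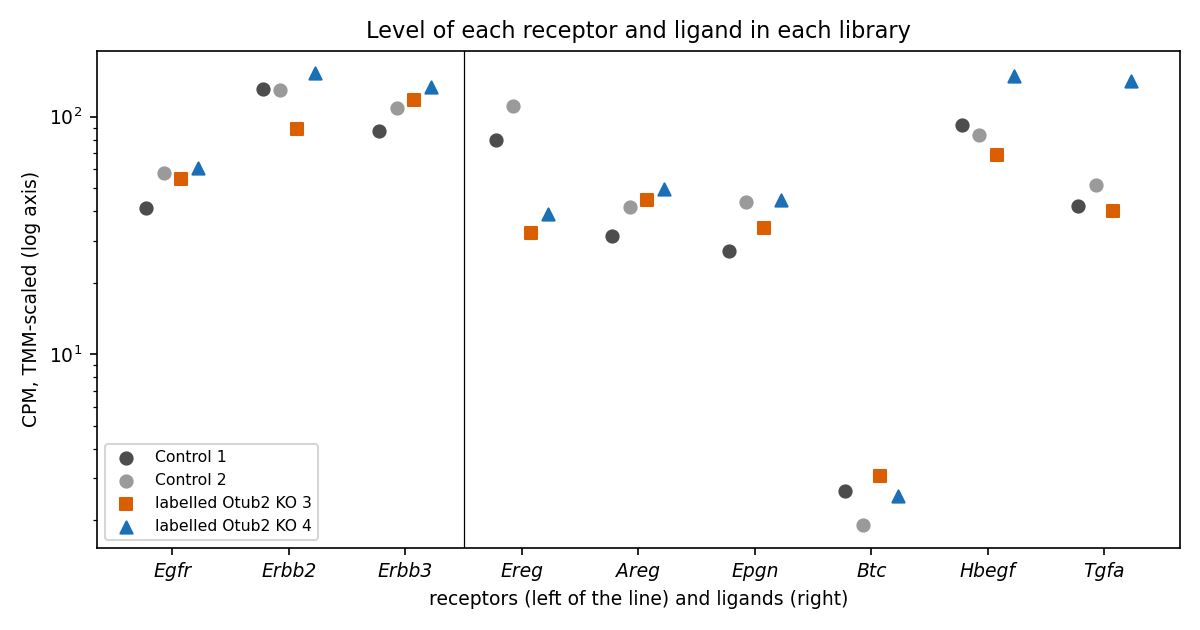
Level of the 3 receptors and 6 ligands in each of the 4 libraries, as TMM-scaled CPM on a log axis, with circles for the controls, squares for library 3 and triangles for library 4. Ereg shows both libraries labelled Otub2 knockout (32.4 and 38.8 CPM) below both controls (79.4 and 111 CPM), while Tgfa and Hbegf are high in library 4 alone.

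Each library labelled Otub2 knockout was also set alone against the controls. In these fits the spread of the lone library is taken to be that of the controls, and both fits share the same controls. Ereg passed the test as lower in library 3 (log2 fold change -1.56, SE 0.292, edgeR adjusted p = 9.54e-07) and in library 4 (-1.27, SE 0.284, adjusted p = 7.78e-05). These fits called 12.7% of all genes lower in library 3 and 22.0% in library 4, so a call of this kind was common. With other scalings of these single-library fits the log2 fold change of Ereg lay between -2.46 (library size alone) and -1.51 in library 3. In library 4 it lay between -1.74 (upper-quartile scaling) and -1.17.

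Ratios between members within a library do not depend on how libraries are scaled. By deposited FPKM, which divides counts by gene length and depth, Ereg stood at 0.742 and 0.787 of the Areg level in the controls versus 0.213 and 0.229 in libraries 3 and 4. Against Egfr the ratio was 5.30 and 5.29 in the controls versus 1.62 and 1.75 in the others. The ratio of Ereg to each of the 8 other members lay below both controls in libraries 3 and 4 alike. All 8 ratios hold the same Ereg values, so they are not separate results. The gap between the lowest control and the highest of the others was smallest against Erbb2 (1.67-fold) and largest against Areg (3.24-fold). With 2 libraries against 2, an exact two-sided permutation test of such a ratio cannot give a p below 0.333.

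Per length, the order of the ligands in the controls was Hbegf, Areg, Ereg, Epgn, Tgfa and Btc. Hbegf was at 44.4 and 40.5 FPKM, Areg at 29.5 and 39.3, Ereg at 21.9 and 30.9, Epgn at 17.1 and 27.8, Tgfa at 7.37 and 9.15 and Btc at 0.670 and 0.484. The ranges of Areg and Ereg and of Ereg and Epgn overlapped, whereas the other neighbours in this order did not. In library 3 the order was Areg (22.9 FPKM), Hbegf (18.0), Epgn (11.7), Ereg (4.88), Tgfa (3.85) and Btc (0.423). In library 4 it was Hbegf (67.9 FPKM), Areg (44.4), Epgn (26.6), Tgfa (23.6), Ereg (10.2) and Btc (0.603). As a share of the ligands' summed FPKM, Ereg made up 18.1% and 20.9% in the controls versus 7.91% and 5.87% in libraries 3 and 4. Areg made up 24.4% and 26.5% in the controls versus 37.1% and 25.6% in the others. Tgfa was at 6.09%, 6.18% and 6.24% in Control 1, Control 2 and library 3, and at 13.6% in library 4.

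**Figure D2:**
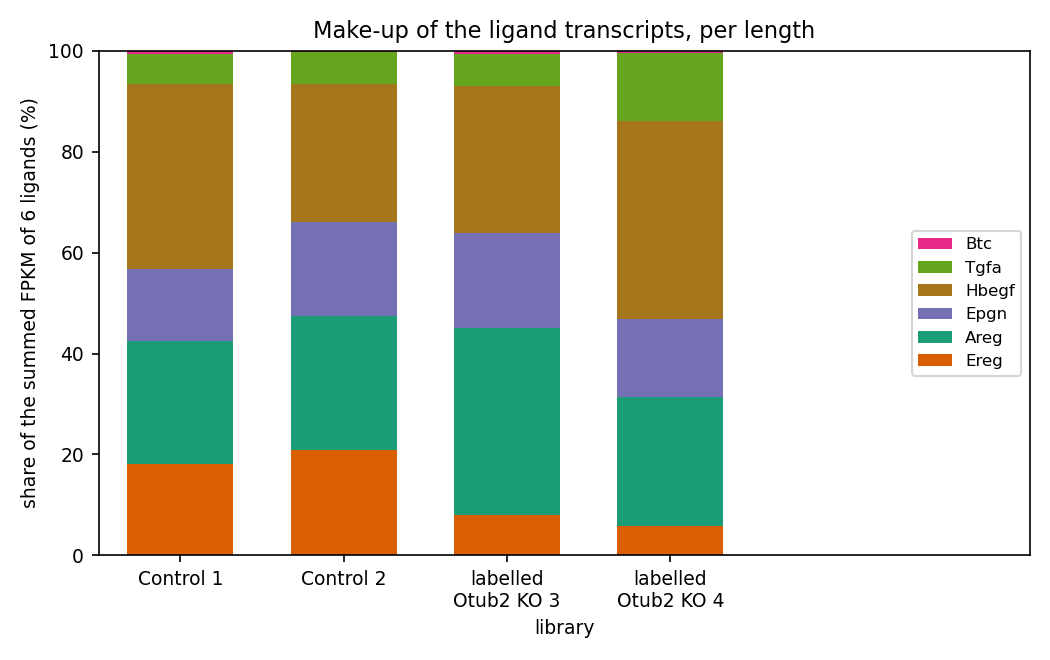
Share of each of 6 ligands in their summed FPKM, in percent, with 1 stacked bar per library. The Ereg segment at the base is 18.1% and 20.9% in the controls, and 7.91% and 5.87% in libraries 3 and 4.

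On the TMM scale the ligand genes on either side of Ereg in the genome were not below the controls. By deposited FPKM library 3 was below both controls for Epgn (11.7 against 17.1 and 27.8) and Areg (22.9 against 29.5 and 39.3). On chromosome 5 (GRCm38) the ligand genes Epgn, Ereg, Areg and Btc follow each other over 376 kb with no other protein-coding gene between them. The gap from Epgn to Ereg is 39.4 kb, from Ereg to Areg 46.0 kb and from Areg to Btc 209 kb.

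Areg encodes amphiregulin, a keratinocyte ligand of Egfr. It lies at 91139599 to 91148432 on the plus strand and was at 31.5 and 41.5 CPM in the controls versus 44.7 and 49.8 CPM in libraries 3 and 4. Both libraries lay above both controls, and the lower of them was nearer to Control 2 than Control 1 was. The log2 fold change was 0.37 (SE 0.277, 95% interval -0.33 to 1.08, edgeR adjusted p = 0.413).

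Epgn encodes epigen, a ligand of Egfr found in epithelia. It lies at 91027464 to 91035215 and was at 27.2 and 43.7 CPM in the controls versus 33.9 and 44.4 CPM in the others, so the groups overlapped (log2 fold change 0.14, SE 0.350, edgeR adjusted p = 0.803). Btc encodes betacellulin, a ligand of Egfr and Erbb4, and lies at 91357261 to 91402994 on the minus strand. It had the fewest reads, with 38 and 26 counts in the controls versus 44 and 52 in the others. At 2.66 and 1.90 CPM against 3.07 and 2.52 CPM the groups overlapped (log2 fold change 0.29, 95% interval -0.93 to 1.50, edgeR adjusted p = 0.708). Both a lower and a higher level lay within the interval.

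Within 500 kb of the cluster 16 protein-coding genes were listed, members included, and 15 were tested. On the TMM scale 5 of them lay above both controls in both libraries, 4 below and 6 overlapped, where 26.9% of all genes tested lay above and 33.1% below. Cxcl5, a neutrophil-attracting chemokine, was at 154 and 95.5 CPM in the controls versus 8.66 and 81.5 CPM in libraries 3 and 4 (log2 fold change -1.47, SE 0.988, edgeR adjusted p = 0.372). Ppbp, a chemokine best known from platelets, was at 8.82 and 17.9 CPM compared with 4.96 and 183 CPM (2.82, SE 1.50, adjusted p = 0.284). Mthfd2l, a mitochondrial enzyme of folate metabolism and the nearest protein-coding gene on the Epgn side, was at 10.8 and 9.74 CPM compared with 8.17 and 6.68 CPM (-0.47, SE 0.401, adjusted p = 0.466). These 3 neighbours were chosen after their values were seen. Of the 4 genes below both controls, which were Ereg, Cxcl5, Mthfd2l and 5830473C10Rik, libraries 3 and 4 differed most in Cxcl5 and least in 5830473C10Rik (log2 differences from the controls of -0.66 and -0.60).

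**Figure D3:**
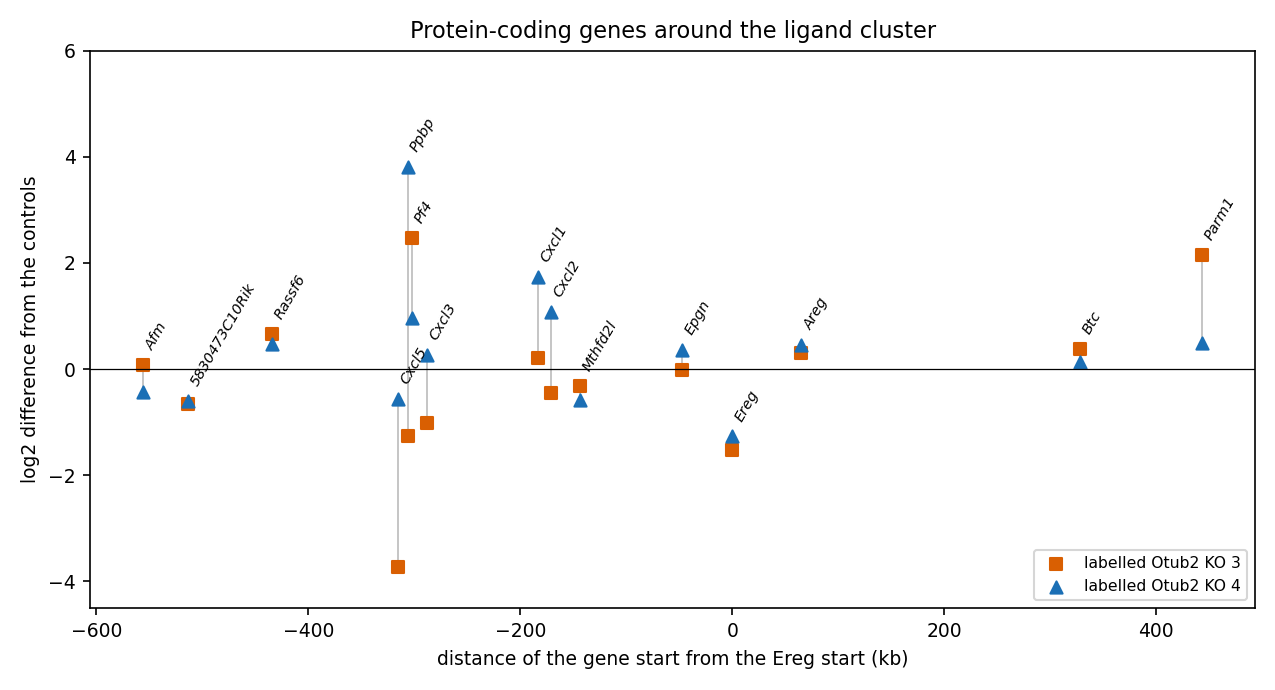
Log2 difference from the mean of the controls for the 15 tested protein-coding genes around the ligand cluster, against the distance of the gene start from the Ereg start in kb, with a square for library 3 and a triangle for library 4 joined by a line. Ereg at 0 kb has both symbols near each other and below the controls, while its neighbours Epgn and Areg lie near or above 0.

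Tgfa and Hbegf differed between the 2 libraries labelled Otub2 knockout. Tgfa encodes transforming growth factor alpha, a ligand of Egfr. Tgfa (ENSMUSG00000029999, chromosome 6, 86195223 to 86275719, plus strand) was at 42.0 and 51.7 CPM in the controls, with library 3 at 40.2 CPM and library 4 at 142 CPM. Library 3 lay just below the controls and library 4 far above them. The log2 fold change was 0.96 (SE 0.608, 95% interval -0.59 to 2.50, edgeR adjusted p = 0.347). Set alone against the controls, library 4 had a log2 fold change of 1.62 (SE 0.257, edgeR adjusted p = 1.03e-08) and library 3 of -0.23 (SE 0.279, adjusted p = 0.546). The value of library 3 depended on the scaling, and Tgfa was called lower there with upper-quartile scaling (-0.72, edgeR adjusted p = 0.0284), library size alone (-1.13, adjusted p = 0.000367) and median centring (-0.83, adjusted p = 0.0129). The difference between libraries 3 and 4 was not tested, since each is 1 library.

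Hbegf encodes heparin-binding EGF-like growth factor, a ligand of Egfr and Erbb4 that is known from wound healing. Hbegf (ENSMUSG00000024486, chromosome 18, 36504927 to 36515805, minus strand) was at 92.5 and 83.7 CPM in the controls, with library 3 at 68.6 CPM and library 4 at 149 CPM. The 2 libraries lay on either side of the controls. Over all 4 libraries the log2 fold change was 0.30 (SE 0.418, 95% interval -0.76 to 1.37, edgeR adjusted p = 0.651). Library 4 alone gave 0.78 (SE 0.258, edgeR adjusted p = 0.00900) and library 3 alone -0.36 (SE 0.273, adjusted p = 0.300). With upper-quartile scaling Hbegf did not pass in library 4 (0.30, edgeR adjusted p = 0.348). In library 3 Hbegf was called lower with upper-quartile scaling (-0.86, adjusted p = 0.00697), library size alone (-1.27, adjusted p = 4.19e-05) and median centring (-0.96, adjusted p = 0.00277).

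On the TMM scale 3 members were called in library 4, of which Tgfa and Hbegf were higher (18.8% of all genes) and Ereg was lower (22.0%). In library 3 only Ereg of the 9 members was called on that scale, as lower (12.7%, with 22.4% of all genes called higher). With upper-quartile scaling 4 members were called in library 3, with library size alone 8 and with median centring 5, all of them lower. The same fits called 30.0%, 51.8% and 35.8% of all genes lower.

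**Figure D4:**
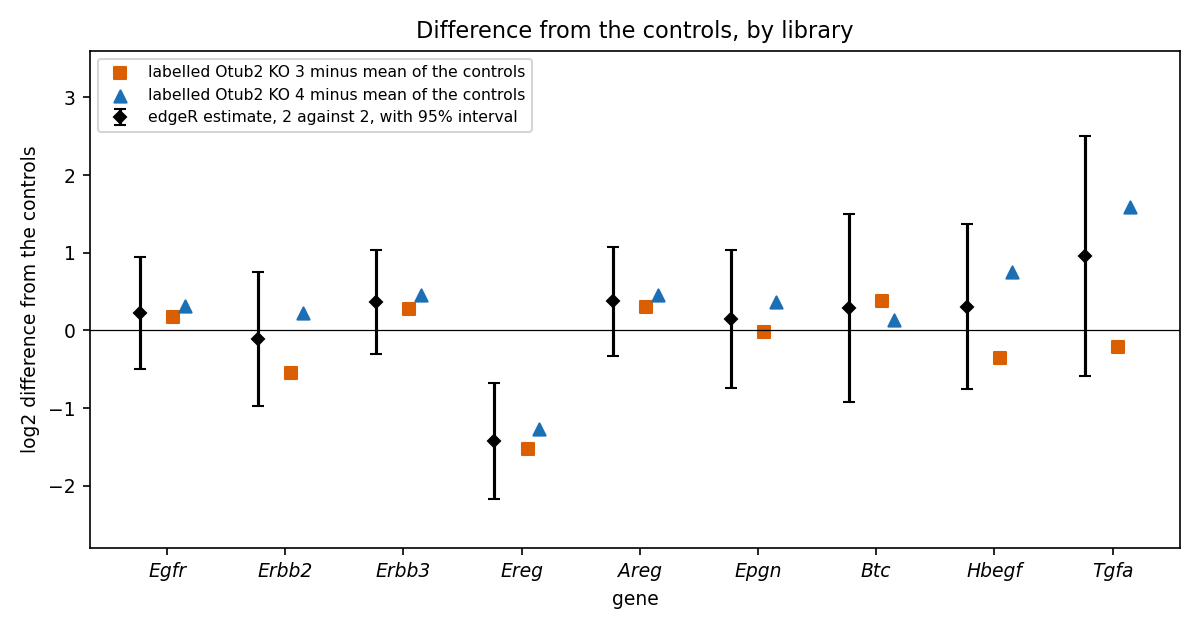
Log2 difference from the controls for each member, with diamonds for the edgeR estimate over 2 against 2 libraries and bars for its 95% interval, and squares and triangles for libraries 3 and 4 minus the mean of the controls. The interval of Ereg (-2.17 to -0.67) does not reach 0, and libraries 3 and 4 lie apart for Tgfa and Hbegf.

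None of the 3 receptors passed the test. Erbb3 (ENSMUSG00000018166, chromosome 10, 128567523 to 128589652, minus strand) was at 86.8 and 109 CPM in the controls versus 117 and 133 CPM in libraries 3 and 4. Both libraries lay above both controls, and the log2 fold change was 0.36 (SE 0.263, 95% interval -0.31 to 1.03, edgeR adjusted p = 0.405). Egfr, the receptor of all 6 ligands (ENSMUSG00000020122, chromosome 11, 16752203 to 16918158, plus strand), was at 41.1 and 57.6 CPM against 54.7 and 60.7 CPM. Its groups overlapped (log2 fold change 0.23, SE 0.284, 95% interval -0.50 to 0.95, adjusted p = 0.621). Erbb2, the partner receptor (ENSMUSG00000062312, chromosome 11, 98412470 to 98437716, plus strand), was at 130 and 129 CPM in the controls, with library 3 at 88.6 CPM and library 4 at 152 CPM. It lay below the controls in library 3 and above them in library 4 (log2 fold change -0.11, SE 0.338, 95% interval -0.97 to 0.75, adjusted p = 0.851). The upper bounds of these intervals correspond to levels 1.93-fold (Egfr), 1.69-fold (Erbb2) and 2.04-fold (Erbb3) those of the controls.

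Per length, Erbb2 was the most abundant receptor in the controls (28.5 and 28.5 FPKM), followed by Erbb3 (16.4 and 20.7) and Egfr (4.14 and 5.85), with no overlap between neighbours. In library 4 the order was the same, with 31.6, 24.0 and 5.81 FPKM. In library 3 Erbb3 (12.1 FPKM) stood above Erbb2 (10.6), and Egfr was at 3.01 FPKM. The ratio of Erbb2 to Erbb3 was 1.73 and 1.37 in the controls, 0.872 in library 3 and 1.32 in library 4.

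Counting overlap alone, 2 members were above both controls in each library labelled Otub2 knockout (Erbb3 and Areg), 1 lay below (Ereg) and 6 overlapped. Of all genes tested 26.9% lay above and 33.1% below, and of genes with a mean of at least 5 CPM 42.7% and 12.0%. The direction of the small differences depended on the scaling. Upper-quartile scaling, library size alone and median centring shifted the median log2 fold change of all genes by -0.47, -0.44 and -0.30 from the TMM scale. Under the first of these Erbb3, Areg, Egfr, Epgn, Btc and Hbegf had negative log2 fold changes and no member lay above both controls, against 10.4% of all genes above and 48.5% below. By library size alone, where 9.17% lay above and 43.0% below, by median centring (12.8% and 39.9%) and by deposited FPKM (9.22% and 42.1%), no member lay above both controls either. Over the 5 scalings Ereg ran from -1.88 to -1.37, Tgfa from 0.50 to 1.03 and Erbb2 from -0.57 to -0.05.

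**Figure D5:**
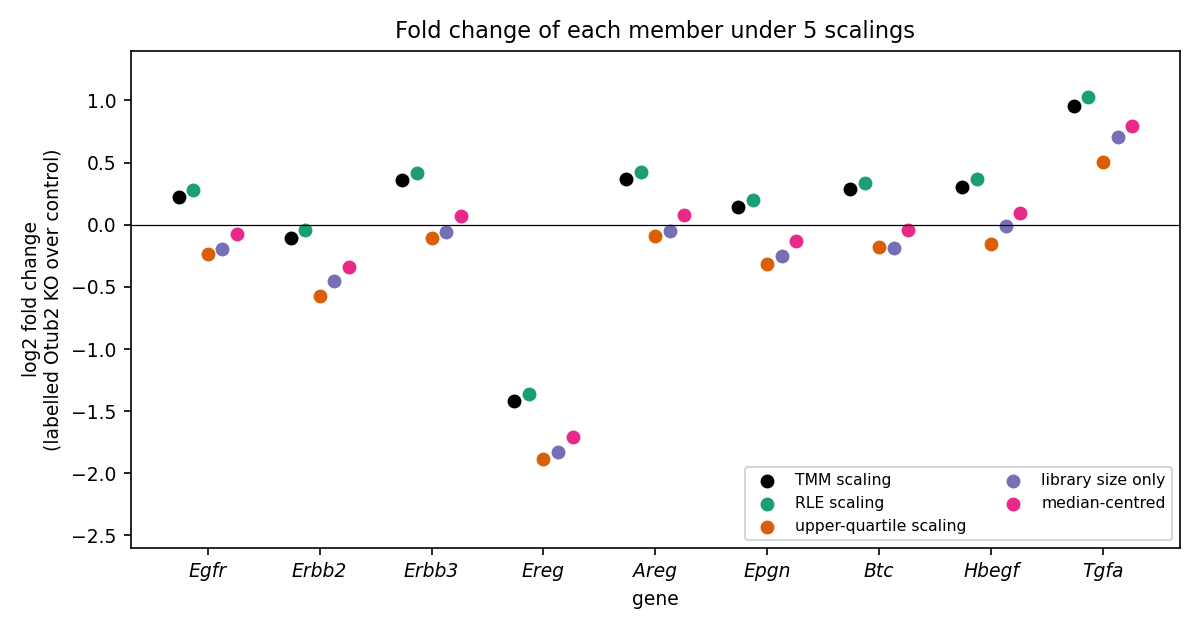
Log2 fold change of each member (libraries labelled Otub2 knockout over controls) under 5 ways of scaling the libraries, 1 colour each. Ereg stays between -1.88 and -1.37 and Tgfa between 0.50 and 1.03, while Egfr, Erbb3, Areg, Epgn, Btc and Hbegf fall on both sides of 0.

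The genes with a pattern over the 4 libraries most like that of Ereg were sought among 11519 others with a mean of at least 5 CPM, by the distance between centred log2 values. The nearest were Chl1, a neural cell adhesion molecule (distance 0.176), Qpct, a glutaminyl cyclase (0.200), and the pseudogene Rps27a-ps2 (0.220). Chl1 was at 42.5 and 57.0 CPM in the controls versus 19.5 and 20.8 CPM in libraries 3 and 4 (log2 fold change -1.31, SE 0.293, edgeR adjusted p = 0.166). With 4 libraries such a likeness describes these libraries only, and reads of Rps27a-ps2 may come from its parent gene.

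Other receptors and ligands of the family were also read. Of 6 genes, 1 was above both controls in libraries 3 and 4, 1 was below and 0 were called, beside 26.9% and 33.1% of all genes tested above and below. Nrg1, a neuregulin that binds Erbb3, was at 15.3 and 18.8 CPM in the controls versus 28.4 and 91.3 CPM in libraries 3 and 4 (log2 fold change 1.81, SE 0.593, edgeR adjusted p = 0.177). Nrg3, a neuregulin that binds Erbb4, was at 2.38 and 2.93 CPM compared with 0.908 and 0.581 CPM (-1.84, 95% interval -3.11 to -0.57, adjusted p = 0.166). With library size alone Nrg3 passed the edgeR test (adjusted p = 0.0485), in a fit that called 6.54% of all genes lower and 0.169% higher.

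Egf, the founding ligand of the family and a known secretory product of mouse salivary glands, was at 3.85 and 3.74 CPM in the controls, with library 3 at 133 CPM and library 4 at 2.42 CPM. Its high value lay in the library where the 14 gland markers summed to 477918 CPM, against 13.2, 10.6 and 31.5 CPM in Control 1, Control 2 and library 4. The part of gland RNA in the Egf level was not tested. Nrg2, another neuregulin, was at 3.57 and 3.96 CPM against 1.89 and 3.63 CPM.

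Genes linked to the release of the ligands, or to its control, were mixed. Of 10 shedding genes 3 lay above both controls and 2 below, where 42.7% and 12.0% of genes with a mean of at least 5 CPM did so, and 0 were called. Adam17, the main protease that releases Areg, Tgfa, Hbegf and Ereg, was at 43.5 and 55.3 CPM in the controls versus 56.5 and 112 CPM in libraries 3 and 4 (log2 fold change 0.77, SE 0.401, edgeR adjusted p = 0.275). Adam15, a related protease, was at 174 and 150 CPM compared with 97.1 and 92.8 CPM (-0.77, SE 0.249, adjusted p = 0.176). Adam9 was at 36.4 and 36.4 CPM against 79.7 and 46.0 CPM, and Adam12 at 4.69 and 5.79 CPM against 7.33 and 11.9 CPM. All 4 kept their sign under the 5 scalings.

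Among 24 adaptors and relay kinases 14 lay above both controls and 1 below, against 42.7% and 12.0% of genes with a mean of at least 5 CPM. None was called, and 5 had an unadjusted p under 0.05, all higher, beside 9.42% of all genes higher and 15.2% lower. Those shares include genes under a mean of 5 CPM, whereas all 24 were at or above it. On the TMM scale the median log2 fold change of all genes was -1.27 under 1 CPM and -0.37 at 1 to 5 CPM. The share with such a p among genes at or above 5 CPM was not computed. Ptpn11, the phosphatase SHP2 that the receptors need for RAS activation, was at 101 and 108 CPM in the controls versus 192 and 183 CPM in libraries 3 and 4 (log2 fold change 0.84, SE 0.245, edgeR adjusted p = 0.168). Akt2, a kinase of the PI3K arm, was at 68.0 and 58.2 CPM compared with 105 and 106 CPM (0.74, SE 0.244, adjusted p = 0.178). Pik3cb, a catalytic subunit of PI3K, was at 17.5 and 18.2 CPM compared with 26.7 and 40.4 CPM (0.91, SE 0.337, adjusted p = 0.193). The median of the list was 0.45 on the TMM scale and -0.02 with upper-quartile scaling, where the median of all genes was -0.38. On the TMM scale the median of all genes was 0.44 at a mean of 20 to 50 CPM and 0.33 at 50 to 200 CPM.

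Of 20 negative regulators 9 were higher than both controls and 3 were lower, which is near the same background shares. None was called by edgeR, and 5 had an unadjusted p under 0.05, all higher, where 9.42% of all genes were higher and 15.2% lower. Those shares include genes under a mean of 5 CPM, whereas all 20 were at or above it, so they are not a matched background. Cblb, a ubiquitin ligase that sends activated receptors to degradation, was at 11.8 and 11.9 CPM in the controls versus 25.7 and 33.4 CPM in libraries 3 and 4 (log2 fold change 1.32, SE 0.326, edgeR adjusted p = 0.166). DESeq2 called Cblb higher (log2 fold change 1.38, adjusted p = 0.0327), and it was the 1 gene of the 82 tested in all 6 pathway lists that DESeq2 called. Over all its genes DESeq2 called 4.89% higher and 1.62% lower. Lrig1, a membrane protein that promotes receptor turnover, was at 16.7 and 14.1 CPM compared with 37.3 and 30.5 CPM (1.14, SE 0.309, edgeR adjusted p = 0.166). Spred2, an inhibitor of RAS signalling, was at 16.4 and 18.9 CPM against 28.6 and 55.6 CPM, and Dusp4, a phosphatase of ERK, at 3.08 and 6.23 CPM against 9.78 and 28.8 CPM. These 4 genes were above the controls under all 5 scalings by their log2 fold change, whereas the median of the list was 0.37 with TMM and -0.09 with upper-quartile scaling. All genes at a mean of 20 to 50 CPM had a median of 0.44 with TMM.

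Of 11 tested genes of receptor endocytosis and sorting 6 lay above both controls and 0 lay below, beside 42.7% and 12.0% of genes with a mean of at least 5 CPM. The median log2 fold change was 0.17 with TMM and -0.30 with upper-quartile scaling. All genes at a mean of 50 to 200 CPM had a median of 0.33 with TMM. Usp8, a deubiquitinase that acts on endocytosed Egfr, was at 40.7 and 52.7 CPM in the controls versus 80.9 and 87.2 CPM in the others (0.85, SE 0.264, edgeR adjusted p = 0.172). Rab7, a GTPase of late endosomes, was at 124 and 130 CPM compared with 202 and 192 CPM (0.63, SE 0.246, adjusted p = 0.201). Stam and Eps15l1 showed log2 fold changes of 0.52 (SE 0.295) and of 0.47 (SE 0.267). The symbol Hgs stood for 2 gene IDs and was left out.

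ERK-responsive genes divided by library, with a median log2 difference from the controls of -0.54 in library 3 and 0.57 in library 4 over 11 genes. Both libraries lay above both controls in 3 of the 11 and below in 0, again beside 42.7% and 12.0%, and none was called by edgeR. Those 3 were Egr1, Fos and Phlda1, which do not show the division by library. Egr1, an immediate early transcription factor, was at 42.4 and 27.5 CPM in the controls versus 63.1 and 105 CPM in libraries 3 and 4 (log2 fold change 1.26, SE 0.383, edgeR adjusted p = 0.170). Fos, an AP-1 subunit, was at 35.5 and 28.6 CPM compared with 58.7 and 62.2 CPM (0.92, SE 0.262, adjusted p = 0.167). Ier2 was at 156 and 118 CPM against 63.3 and 124 CPM, and Phlda1 at 93.8 and 82.3 CPM against 112 and 108 CPM, where the log2 fold change of 0.32 turned negative with upper-quartile scaling.

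Summed markers of other cell types also differed between the libraries. Of 13 fibroblast markers 9 were above both controls in each of the 2 libraries, and 0 were below them in both. The 13 markers summed to 262 and 299 CPM in the controls versus 879 and 614 CPM in libraries 3 and 4. Not all of them were higher in each library. Dcn, Pdgfra and Fap lay below both controls in library 4 and above both in library 3. Thy1 lay below both controls in library 3 and between them in library 4. Of 15 keratinocyte markers 1 lay above and 8 below, where 26.9% of all genes tested lay above and 33.1% below. Among genes with a mean of at least 5 CPM these shares were 42.7% and 12.0%. Of 7 markers of gland ducts and simple epithelium 5 lay above and 0 below, with sums of 181 and 167 CPM against 541 and 369 CPM. Summed markers of endothelium (70.9 and 61.2 CPM against 250 and 68.7 CPM), leukocytes (62.1 and 61.6 CPM against 134 and 55.5 CPM) and skeletal muscle (29.1 and 25.6 CPM against 432 and 86.3 CPM) were highest in library 3. The leukocyte sum in library 3 was mostly Lyz2 (87.8 CPM), and of the 7 leukocyte markers 1 lay above both controls and 3 below. Among skeletal muscle markers Ckm stood at 290.1 CPM and Acta1 at 130 CPM in library 3, both of them genes that heart also expresses. Myh1, Myh4, Tnnt3, Tnni2 and Mylpf were lower in library 3 than in both controls. In library 4 Acta1, Myh1, Myh2, Tnnt3, Tnni2 and Mylpf lay above both controls, and Ckm and Myh4 lay below both. Tnnt3 was at 9.82 CPM in library 4 against 1.89 and 2.78 CPM in the controls, and Tnni2 at 21.44 against 10.22 and 6.67 CPM. These marker genes were chosen after their values were seen. The part of these differences in the levels of Ereg and of the other members was not tested.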

How the data were processed

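The authors deposited a raw read count per gene and library, per the file headers, and an FPKM value for each count. Over 7203 genes with enough counts, the deposited FPKM equalled the count over a gene length and the column total. HISAT2, DESeq and the human build GRCh38 stand in the submitters' processing notes, while the IDs are mouse Ensembl IDs, and 54409 of 54446 were found in GENCODE mouse release 21 (GRCm38), used for coordinates and coding sequences. For the counting tool and strand setting the sources used here give nothing. Another 14785 features without an Ensembl ID held 0.914% to 2.84% of counts and were left out.

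Counts were tested with edgeR 4.0.16 (R 4.3.3): TMM, filterByExpr, quasi-likelihood F-test, Benjamini-Hochberg adjustment at 0.05 over 21916 genes. Alternatives used DESeq2 1.42.0, voom of limma 3.58.1, other scalings, filters and each library left out. Log2 differences of single libraries used CPM plus 0.5. The 9 members, the 6 pathway lists and the 8 marker lists were chosen with earlier results of these data known. Named genes were all members, up to 4 genes per pathway list by smallest p, and the 3 genes nearest to the member of smallest p. Neighbours of the ligand cluster and single marker genes were named after their values were seen. One gene that this rule named is not reported here. Precision depends on the counts and on the spread among libraries, and intervals are 95% intervals. Each SE was derived from the log2 fold change and the F statistic of its test, and each interval from that SE.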

Additional observations from a re-analysis of the deposited data

How the results depend on the processing

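The log2 fold change of Ereg over all 4 libraries, or without 1 of them, was negative in all 13 alternatives (-1.88 to -1.13). That of Tgfa was positive in all but 1 of 13, being -0.23 without library 4, and was 1.62 without library 3. Members called numbered 0 in the main fit, 1 with DESeq2 and, leaving out 1 library at a time, 0 to 3. Over the pathway lists 1 gene was called with library size only and 1 with DESeq2, and leaving out 1 library gave 0 to 34. Over all genes, 37 were called higher and 1433 lower with library size only, 780 and 258 with DESeq2, and 6 and 3 with no filter. Leaving out 1 library gave 0 to 5243 higher and 0 to 5097 lower, with the large counts where library 3 or 4 was left out and its partner stood alone.

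No member lay above both controls with upper-quartile scaling (0), library size only (0), median centring (0) or deposited FPKM (0), and 2 lay below with upper-quartile scaling. With upper-quartile scaling the log2 fold change turned to -0.24 for Egfr, -0.10 for Erbb3, -0.092 for Areg, -0.16 for Hbegf, -0.32 for Epgn and -0.18 for Btc. With library size only it turned to -0.20 for Egfr, -0.058 for Erbb3, -0.050 for Areg, -0.0072 for Hbegf, -0.25 for Epgn and -0.19 for Btc. With median centring it turned to -0.071 for Egfr, -0.13 for Epgn and -0.043 for Btc, and with only genes at a mean CPM of 5 or more to -0.10 for Egfr, -0.031 for Hbegf and -0.18 for Epgn. Erbb2 turned to 0.032 with no filter, 0.16 with unannotated features kept and 0.26 without library 3, and was -0.55 without library 4. Hbegf ran from -0.36 without library 4 to 0.78 without library 3. Epgn was at -0.071 without library 4, -0.15 without Control 1 and 0.56 without Control 2. In the fit of library 3 alone against the controls, added after seeing the data for other scalings, 4 members were called with upper-quartile scaling, 8 with library size only and 5 with median centring, all lower, against 1 with TMM, where the fits called 30.0%, 51.8%, 35.8% and 12.7% of all genes lower. The cause was not tested. No paired analysis was possible because the groups share no replicate numbers. Btc, with 26 to 52 counts, is limited by depth.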
